A study of Mus musculus with 12 samples.

Results

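AMP-activated protein kinase (AMPK) was examined here through the transcripts of 10 genes, 6 that encode subunits of the kinase and 4 that encode the kinases that switch it on or their partners. The genes were Prkaa1, Prkaa2, Prkab1, Prkab2, Prkag1, Prkag2, Stk11, Strada, Cab39 and Camkk2, and all 10 were found by name among the 35999 genes measured. The group was chosen partly on the measured values, because Prkaa1 had one of the smallest p-values in the comparison of knockout with wild-type libraries. The difference of Prkaa1 between genotypes is therefore given as a description without a test, and the other 9 genes, which came with it as members of the same pathway, were tested.

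AMPK is a heterotrimer of a catalytic alpha, a scaffolding beta and a nucleotide-binding gamma subunit, and it slows biosynthesis and raises catabolism when AMP and ADP accumulate at the expense of ATP. It becomes active when a threonine in the activation segment of the alpha subunit is phosphorylated, either by LKB1 in complex with the pseudokinase STRAD and the scaffold MO25 or, after a rise in calcium, by CAMKK2. In hematopoietic stem cells, LKB1 is known to be needed for energy balance and for maintenance of the stem cell pool.

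RNA was sequenced from LSK cells of mouse bone marrow, which carry KIT and Sca-1 but no lineage markers and include stem cells and multipotent progenitors. There were 6 libraries labelled WT and 6 labelled Fancg KO, each from 1 mouse, with replicate numbers 2 to 7 in both genotypes. The KO mice are Fancg-/-, lacking a subunit of the Fanconi anemia core complex in every cell, and no agent was named for these libraries. Age, sex and strain of the mice were not given in the sources used here.

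Values are the normalized signal per gene and library as deposited. Between about 1235110 and 2471420 reads stood behind a library, and depth did not separate the genotypes (log2 difference -0.11, two-sided exact permutation test, p = 0.558). The transcript of Fancg ran from 4.76 to 24.1 in the libraries labelled WT and from 4.46 to 14.5 in those labelled KO (log2 difference -0.20, exact permutation test, p = 0.636). The targeted gene therefore did not check the labels, and the cause was not tested. The summed signal of 4 Y-linked genes was 26.6 in WT replicate 3 and 49.7 in KO replicate 7, below the 189 to 435 of the other 10 libraries, and the differences of the 10 genes without both are given here or with the alternative settings. All 10 listed markers of stem and progenitor cells were detected, with a summed signal of 1433 to 2320, whereas Ly6a, which encodes Sca-1, was low, with 4.84 to 17.4. Markers of neutrophils and monocytes summed to 367 to 2048, carried by Itgam, Elane, Mpo and Lyz2 while Ly6g, S100a8 and S100a9 stayed under 3 reads, those of NK cells to 29.5 to 81.1, of B cells to 9.57 to 20.6, of erythroid cells to 5.59 to 27.7 and of T cells to 1.45 to 7.47. Markers of megakaryocytes reached 13.8 to 52.4 in WT and 23.8 to 84.1 in KO libraries (exact permutation test, p = 0.069). The part of these other cells in the values below was not tested. In bulk RNA, fewer cells of a type and less RNA per cell cannot be told apart.

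The stretch of the catalytic subunits on which the upstream kinases act is shown first. The beta and gamma subunits assemble with the catalytic subunits, and the upstream kinases and their partners lead to phosphorylation of this stretch. The coding sequences of the activation segment, from the conserved DFG to the APE motif, were read from GENCODE M21 transcripts on GRCm38, and capitals mark the bases at which both genes differ. The segment of Prkaa1 lies in exons 4 and 5 of ENSMUST00000051186.8, at chr15:5168706-5170002 on the plus strand with 1 intron inside, and that of Prkaa2 lies in exons 4 and 5 of ENSMUST00000030243.7, at chr4:105049348-105051208 on the minus strand, also with 1 intron inside.
Prkaa1: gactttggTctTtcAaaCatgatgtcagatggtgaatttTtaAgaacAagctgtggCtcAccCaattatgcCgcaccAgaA
Prkaa2: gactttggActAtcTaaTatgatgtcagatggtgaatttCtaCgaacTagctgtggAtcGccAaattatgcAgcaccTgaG
The segments differed at 13 of 81 bases (84.0% identity) and at 0 of 27 encoded residues. Each held 1 threonine, residue 183 of the 559 residues encoded by Prkaa1 and residue 172 of the 552 encoded by Prkaa2. The proteins thus share this site to the letter, while the longest stretch without a mismatch was 21 bases, and 0 of 51 windows of 31 bases were common to both segments. Over all annotated exons, Prkaa1 shared 5 of 4625 such windows with Prkaa2, so fragments of this length tell the catalytic genes apart almost everywhere.

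Prkaa1 encodes alpha-1, the catalytic subunit known as the main one in blood cells. It was higher in each of the 6 libraries labelled KO than in any of the 6 labelled WT. The gene lies on GRCm38 at chr15:5143861-5181899 on the plus strand (ENSMUSG00000050697.9). In WT replicates 2 to 7 its signal was 54.4, 50.5, 56.7, 49.7, 52.5 and 51.0. In KO replicates 2 to 7 it was 71.5, 71.6, 89.5, 97.1, 75.2 and 62.9. The WT libraries were close together and KO replicates 4 and 5 were the highest, while KO replicate 7 lay nearest to WT, 6.12 above the highest WT library. The mean was 52.5 ± 2.68 (SD, n = 6) in WT and 78.0 ± 12.8 (SD, n = 6) in KO, a ratio of 1.49 and a log2 difference of 0.55 on log2(signal + 1). This is the value that chose the gene, and nothing is read from it beyond the description.

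Of the libraries nearest to each other across genotypes, KO replicate 7 held few reads of Prkaa1 and WT replicate 4 more, about 77.3. KO replicate 7 held about 39.2 reads of Prkaa1, for which the 95% Poisson interval of its signal ran from 44.7 to 85.9. That interval spans every WT value. KO replicate 5 held about 117 reads, with an interval of 80.3 to 116, and KO replicate 4 about 115 reads, with an interval of 73.9 to 108. The values of KO replicates 4, 5 and 6 lay above the upper counting limits of all 6 WT libraries, the highest of which was 72.8 in WT replicate 2. This is no test of the difference, since Prkaa1 was chosen on these same values. The coefficient of variation was 5.11% among WT libraries, below the 13.5% that counting a mean of 54.8 reads gives by itself, and 16.4% among KO libraries, against 11.1% from counting 81.4 reads. These intervals cover counting error only and use read numbers that are themselves approximate.

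**Figure D1:**
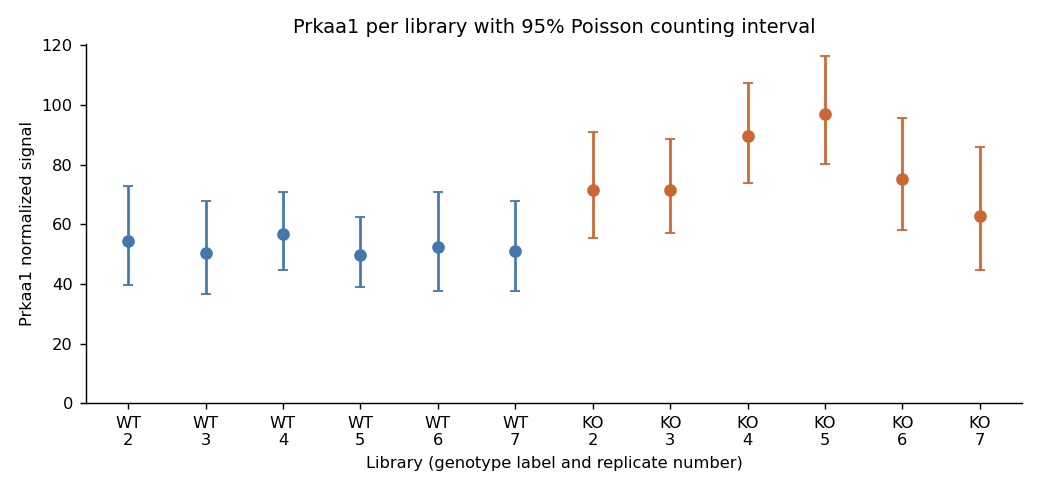
Normalized signal of Prkaa1 (y axis) in each library (x axis, genotype label and replicate number), with blue points for WT and orange points for KO, and bars for the 95% Poisson counting interval. All 6 KO points lie above all 6 WT points, and the bar of KO replicate 7, from 44.7 to 85.9, spans the WT values.

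Refits of the same libraries give a range for Prkaa1 but no support for its difference, since the gene was chosen on this comparison. Over 22 alternative settings its log2 difference ranged from 0.48, without KO replicate 5, to 0.61, without KO replicate 7. With the 2 libraries of low Y-linked signal left out it was 0.60. Among the 8887 genes whose mean signal reached 10, 4 had KO libraries that all lay above all WT libraries, which is 0.045%, and Prkaa1 was 1 of these by the way it was chosen. The numbers of genes past the thresholds were small as well. With limma, 0 genes (0%) had an adjusted p under 0.05, 326 genes (3.67%) had an unadjusted p under 0.05, and 233 (2.62%) had in addition a log2 difference beyond 0.5 in either direction. Of the last group, 123 genes (1.38% of those tested) were higher and 110 lower in KO. With equal total signal per library, leaving out Lars2, the split was 86 higher and 38 lower. Lars2 alone took between 15.6% and 36.2% of the signal of a library.

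Prkaa2 encodes alpha-2, the catalytic subunit known from skeletal muscle and heart, and its transcript was scarce in LSK cells. The gene (chr4:105029874-105109890, minus strand) had a signal of 2.51 at the lowest, 5.27 at the median and 24.2 at the highest in WT. In KO the lowest value was 0, the median 4.56 and the highest 10.01. WT replicate 3, 1 of the libraries of low Y-linked signal, stood far above the rest, and the other libraries of both genotypes overlapped. The 0 in KO replicate 4 allows a signal of up to 2.34, the worth of 3 reads. The mean of 6.82 over 12 libraries fell below the filter, and the log2 difference of -0.73 did not exceed the spread (exact permutation test, p = 0.290). It was -0.29 without KO replicate 4 and -0.40 without WT replicate 3. When limma was run without the filter, the adjusted p was 0.889, with an SE of 0.60.

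Divided by exon length, the catalytic pair consisted almost wholly of Prkaa1. Its share of the pair was 78.1% in WT replicate 3 and between 89.3% and 97.3% in the other WT libraries. It was between 94.2% and 100% in the KO libraries, with medians of 94.6% in WT and 96.2% in KO. The share was at its highest in KO replicate 4, where Prkaa2 was at 0. No test is given for the share, since Prkaa1 is part of it.

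Among the scaffold genes, Prkab1 and Prkab2, which encode beta-1 and beta-2 and hold the trimer together, no difference between genotypes passed the test. Prkab1 (chr5:116013586-116024508, minus strand) ran from 10.04 over a median of 11.5 to 24.0 in WT. The KO libraries ran from 7.03 over a median of 14.9 to 24.8. The value of 24.0 in WT replicate 6 stood apart from the other WT libraries, which reached 14.5, and KO replicates 2 and 7 were the highest of the KO libraries. Between genotypes the log2 difference was 0.11 with an SE of 0.33 (limma adjusted p = 0.9996 over all genes tested), and its 95% interval from -0.58 to 0.81 left room for a fold between 0.67 and 1.75.

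Prkab2 (chr3:97658193-97673812, plus strand) was lower still, with 6.11, 9.99 and 14.6 as the lowest, median and highest signal in WT. The corresponding KO values were 4.05, 7.79 and 16.9. KO replicate 5 was the highest of all 12 libraries, and the other 5 KO libraries lay below the WT median. Its mean of 9.38 was just under the filter of 10, the log2 difference was -0.24 (exact permutation test, p = 0.457), and limma without the filter gave an adjusted p of 0.914.

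Per exon length, Prkab1 made up the larger share of the scaffold pair in every library. Its share was 68.7% ± 10.2 (SD, n = 6) in WT and 73.9% ± 9.48 (SD, n = 6) in KO. The difference of 5.12 percentage points was smaller than the spread between libraries (exact permutation test, p = 0.383). It came to 3.38 points without WT replicate 4, 2.03 without WT replicate 7, 2.91 without KO replicate 2 and 3.26 without KO replicate 7.

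The nucleotide-binding genes Prkag1 and Prkag2 encode gamma-1 and gamma-2, which carry the sites for AMP, ADP and ATP. Both were spread over more than a factor of 2 within each genotype, and no difference between genotypes passed the test. Prkag1 (chr15:98812797-98831521, minus strand) ran from 9.35 over a median of 14.2 to 24.0 in WT. In KO it ran from 9.24 over a median of 11.1 to 22.4. WT replicates 3 and 4 and KO replicates 4 and 7 held 21.0 to 24.0 and all other libraries 15.2 or less, so the spread lay within the genotypes. KO minus WT, the log2 difference was -0.18 with an SE of 0.29 and a 95% interval of -0.80 to 0.45 (limma adjusted p = 0.9996). Of the 31-base windows of Prkag1, 35.0% also occur in the antisense gene B130046B21Rik. Whether counting used the strand is not given in the sources used here, so the signal of Prkag1 is uncertain to that extent.

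Prkag2 (chr5:24862744-25100642, minus strand) ran from 14.1 over a median of 25.6 to 32.4 in WT. The KO values ran from 9.54 over a median of 23.1 to 36.8. KO replicates 5 and 7 held the lowest and the highest value of all 12 libraries, so the KO range enclosed the WT range. On average the log2 difference was -0.04 with an SE of 0.30 and a 95% interval of -0.67 to 0.60 (limma adjusted p = 0.9996), and 12.7% of its windows also occur in other genes, mostly the antisense gene Prkag2os2.

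Which of the gamma genes was the more abundant depended on the scale. Per exon length, Prkag1 made up 65.2% ± 13.1 (SD, n = 6) of the pair in WT and 63.1% ± 12.2 (SD, n = 6) in KO. As signal without division by length, its share was 40.4% in WT and 37.9% in KO, since the exons of Prkag2 span 6480 bases and those of Prkag1 2175. On the scale per length the genotypes differed by -2.09 percentage points (exact permutation test, p = 0.784). The gene of the remaining gamma subunit, Prkag3, known from skeletal muscle, had a mean signal of 1.56 and was not tested.

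**Figure D2:**
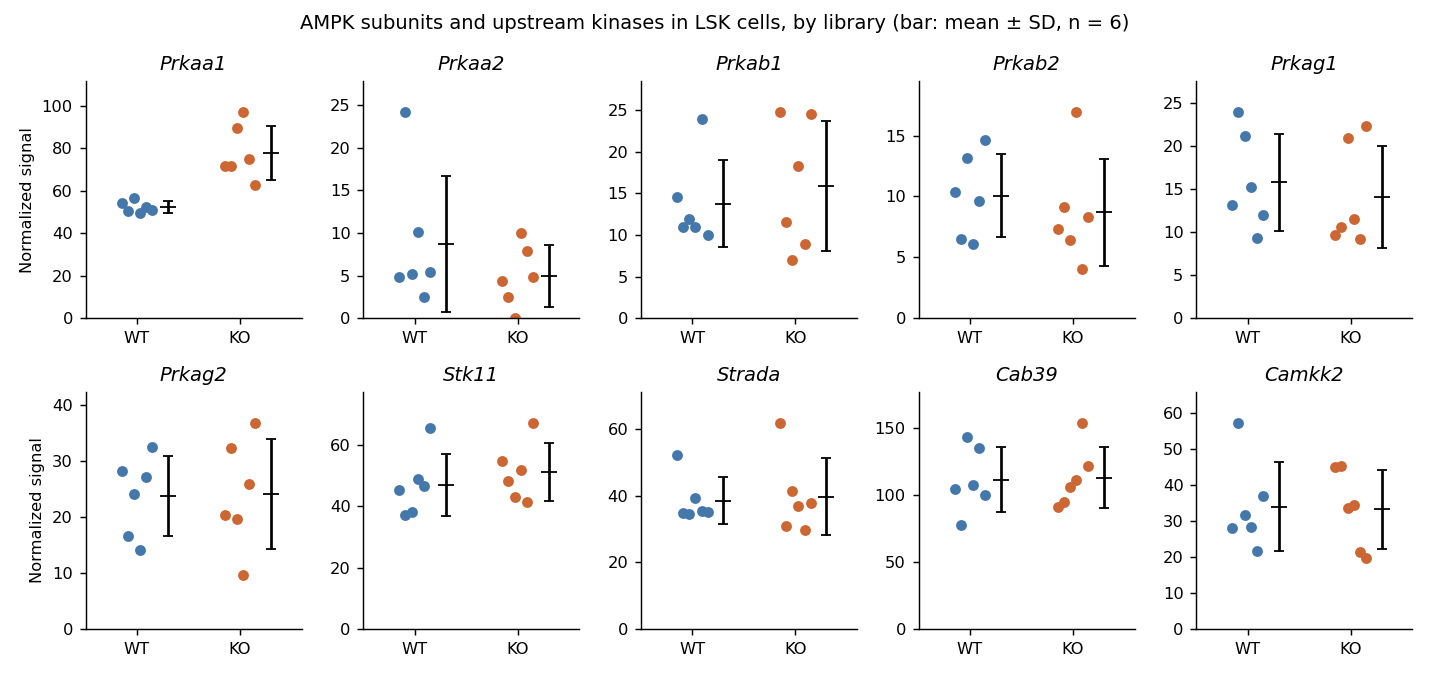
Normalized signal (y axes, each starting at 0) of the 10 genes by genotype, with 1 point per library and a bar for the mean ± SD (n = 6). Prkaa1 is the gene whose KO points all lie above the WT points, and in the other 9 panels the ranges overlap.

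Summed per kilobase of exon, the alpha genes gave more signal than the beta genes in 12 of 12 libraries and more than the gamma genes in 10 of 12. The alpha sum ran from 11.6 over a median of 12.1 to 13.9 in WT and from 14.1 over 16.5 to 22.1 in KO. These sums follow Prkaa1 and carry no test. The beta sum ran from 4.78 over 6.31 to 9.71 in WT and from 3.56 over 7.42 to 9.64 in KO. The gamma sum ran from 8.49 over 10.4 to 13.6 in WT and from 6.79 over 9.05 to 16.0 in KO. The gamma sum exceeded the alpha sum in WT replicate 4, with 13.4 against 12.8, and in KO replicate 7, with 16.0 against 14.1. In KO replicate 7 the gamma sum was the highest and the alpha sum the lowest among the KO libraries.

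**Figure D3:**
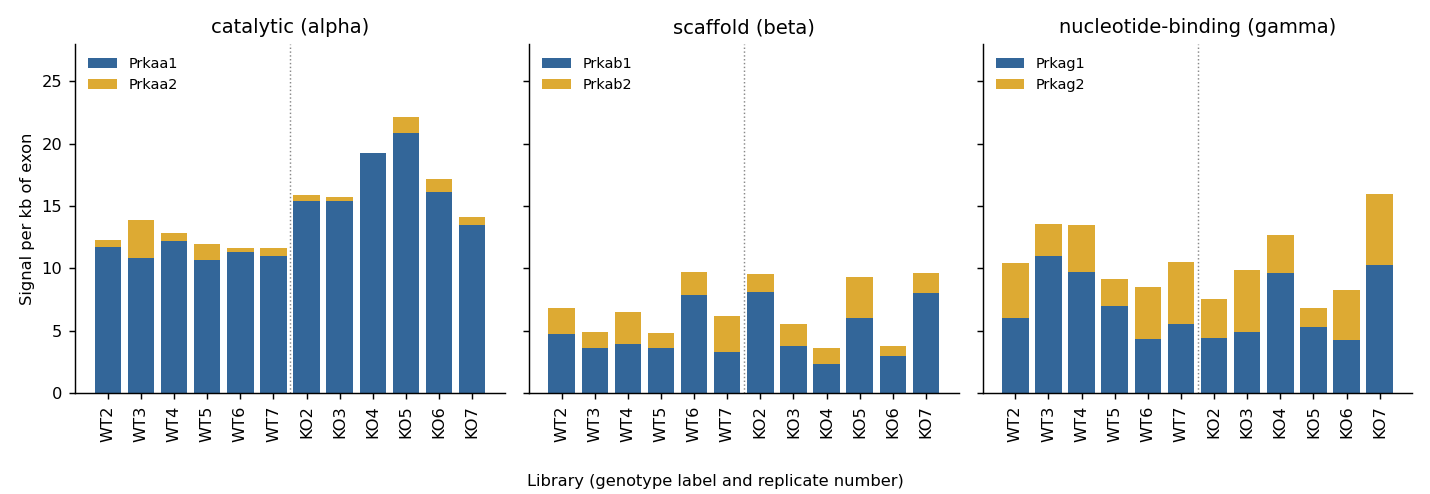
Signal per kilobase of exon (y axis) in each library (x axis), stacked for the 2 genes of each subunit in 3 panels, with a dotted line between WT and KO libraries. The alpha panel is filled almost wholly by Prkaa1, and its KO columns, from 14.1 to 22.1, are taller than its WT columns, from 11.6 to 13.9.

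The genes of the LKB1 complex were better covered than the beta and gamma genes, and none differed between genotypes beyond the spread. Stk11 encodes LKB1, the kinase itself (chr10:80115803-80130682, plus strand). Its signal was 37.2 at the lowest, 45.9 at the median and 65.6 at the highest in WT. In KO these values were 41.5, 50.1 and 67.4. Replicate 7 was the highest library in both genotypes, and the ranges overlapped almost entirely. Its log2 difference was 0.13 with an SE of 0.17 (limma adjusted p = 0.9996), and its 95% interval allowed a fold between 0.85 and 1.41. Stk11 shared 4.31% of its windows with Cbarp.

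Strada encodes STRAD-alpha, the pseudokinase that activates LKB1 and holds it in the cytoplasm (chr11:106163330-106202168, minus strand). In WT it ran from 34.6 over a median of 35.2 to 52.4. In KO it ran from 29.7 over a median of 37.4 to 62.0. Replicate 2 was the highest library in both genotypes, and without it the range was 34.6 to 39.5 in WT and 29.7 to 41.4 in KO. For Strada the log2 difference was 0.02 with an SE of 0.19 and a 95% interval of -0.39 to 0.42 (limma adjusted p = 0.9996).

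Cab39 encodes MO25-alpha, which stabilizes LKB1 with STRAD (chr1:85793441-85851576, plus strand), and was the most abundant of the 10 genes by signal. It ran from 77.5 over a median of 106 to 143 in WT. Among KO libraries the values ran from 90.6 over a median of 108 to 154. KO replicate 6 and WT replicate 4 were the highest libraries and WT replicate 3 the lowest. The log2 difference was 0.03 with an SE of 0.17, and the 95% interval of the fold, 0.79 to 1.31, was the narrowest of the tested genes together with that of Stk11 (limma adjusted p = 0.9996 for both).

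Camkk2, the gene of the calcium-dependent upstream kinase (chr5:122731170-122779409, minus strand), also did not separate the genotypes. It ran from 21.7 over a median of 29.9 to 57.3 in WT. In KO it ran from 19.6 over a median of 33.9 to 45.2. WT replicate 3 held the highest value, KO replicates 6 and 7 the lowest KO values, and the ranges overlapped. The log2 difference was -0.03 with an SE of 0.26 and a 95% interval of -0.58 to 0.51 (limma adjusted p = 0.9996).

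Without Prkaa1, 7 of the 9 genes passed the filter on low values, 4 with a higher and 3 with a lower mean log2 value in KO. Of all genes tested, 50.7% were higher. None of these 7 had an unadjusted p under 0.05, against 3.67% of all genes tested. Their median absolute log2 difference was 0.036, and that of all genes tested was 0.147, with a 90th percentile of 0.43. Over the 22 alternative settings, the smallest unadjusted p of these 7 genes was 0.190 and the smallest adjusted p 0.907 (limma). For Prkaa2 and Prkab2, the smallest exact permutation p over the alternatives was 0.175 and 0.132, both without KO replicate 5. These values show no detectable difference at this depth, although intervals such as that of Prkag1 still held folds from 0.57 to 1.36.

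**Figure D4:**
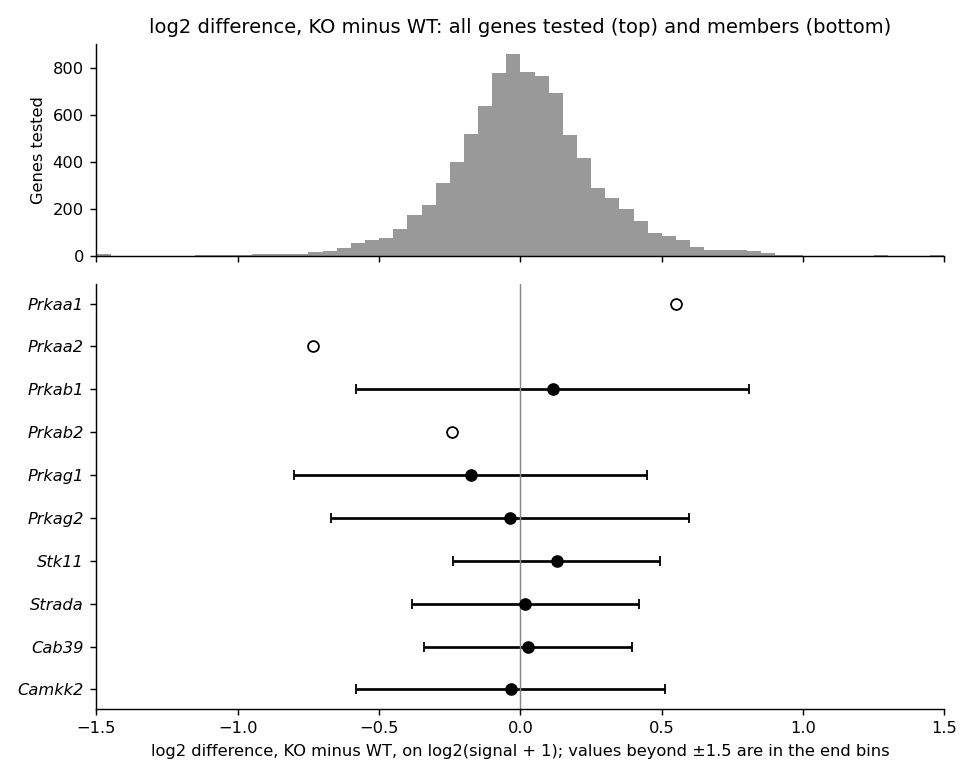
Difference KO minus WT on log2(signal + 1) (x axis) for all 8887 genes tested as a histogram of gene numbers (top) and for the 10 genes (bottom), with bars for the 95% interval of the limma fit. Open circles mark genes without a limma test, Prkaa1 because it was chosen on this value and Prkaa2 and Prkab2 because they fell below the filter, and the 7 tested genes lie close to 0.

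Per kilobase of exon and over all 12 libraries, the genes ranked from Cab39 over Prkaa1, Stk11, Strada, Prkag1, Prkab1, Prkag2, Camkk2 and Prkab2 to Prkaa2. Cab39 had a mean of 15.8 ± 3.18 (SD over 12 libraries), 15.7 in WT and 15.9 in KO, and stood at percentile 77.3 of all genes tested. Prkaa1 followed with 14.0 ± 3.43, 11.3 in WT and 16.7 in KO. Its KO mean was thus above that of Cab39, on the values that chose the gene. Cab39 was still the higher in KO replicate 6 (21.7 against 16.1) and KO replicate 7 (17.2 against 13.5), and Prkaa1 in the other KO libraries. Strada and Prkag1 also changed places, with 6.93 and 7.26 in WT and 7.15 and 6.46 in KO. Stk11 had 10.7 ± 2.11. At the lower end, Camkk2 had 3.07 ± 1.03, Prkab2 1.84 ± 0.752 and Prkaa2 0.856 ± 0.783. Most neighbours in this order differed by less than the spread (SD) of their ratio between libraries, and the order was not tested. Stk11 exceeded Strada in 12 of 12 libraries (mean log2 ratio 0.61 ± 0.36), Camkk2 exceeded Prkab2 in 11 (0.74 ± 0.67) and Prkab2 exceeded Prkaa2 in 9 (1.33 ± 1.32). In the other 6 neighbouring pairs the mean log2 ratio was smaller than its SD, and the higher gene was ahead in 7 to 10 of 12 libraries.

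Within a genotype, the 8 genes that passed the filter did not rise and fall together. Over their 28 pairs, Pearson r of the deviations of log2(signal + 1) from the genotype means over 12 libraries had a median of -0.067, with 11 pairs above 0. It ran from -0.83 for Cab39 with Camkk2 to 0.45 for Prkab1 with Stk11, and was -0.61 for Prkaa1 with Prkag2. Among 8886 other genes, those whose deviations were most like the deviations of Prkaa1 were Atp6v1a (r = 0.956), Usp26 (0.909) and Cdc42se1 (0.859). The signal of Prkaa1 varied little among WT libraries (SD 2.68 against 12.8 in KO), so its coefficients rest mostly on the KO libraries. All these points share libraries and their depth, and the coefficients are descriptions.

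Of 56 further genes of the pathway in 5 lists, 45 passed the filter. In mean log2 value 27 of them (60%) were higher and 18 lower in KO, beside 50.7% higher among all genes tested. This excess was not tested. Their median log2 difference was 0.02 against 0.003 for all genes tested. With limma, 0 of them passed the adjusted threshold, 3 (6.67%) had an unadjusted p under 0.05 and 1 of these (2.22%) a log2 difference beyond 0.5, beside 3.67% and 2.62% of all genes. The 1 gene was Ulk1, which encodes the kinase that AMPK phosphorylates to start autophagy. Its signal ran from 7.90 over a median of 12.5 to 16.5 in WT. In KO it ran from 8.12 over a median of 26.2 to 29.8, and 5 of 6 KO libraries lay above the WT median. For Ulk1 the log2 difference was 0.73 with an SE of 0.31 (95% interval 0.07 to 1.40, limma unadjusted p = 0.0319 and adjusted p = 0.9996, exact permutation p = 0.058). It missed the unadjusted thresholds in 7 of 12 fits that left out 1 library (without WT replicate 2, 4 or 7 or KO replicate 2, 3, 4 or 5), with limma p between 0.0517 and 0.0748 there. With both libraries of low Y-linked signal left out, the log2 difference was 0.91 (limma unadjusted p = 0.0198).

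The other pair of genes with an unadjusted p under 0.05 was chosen after its values were seen. Pfkfb2 encodes an enzyme that makes fructose 2,6-bisphosphate, the activator of glycolysis, and in heart is a target of AMPK. It ran from 17.8 over a median of 23.3 to 27.8 in WT and from 24.0 over 30.2 to 43.7 in KO. The log2 difference was 0.47 with an SE of 0.19 (limma unadjusted p = 0.0253, adjusted p = 0.9996, exact permutation p = 0.019). Pfkfb2 was not under 0.05 with equal total signal (limma unadjusted p = 0.0915) or in 4 of 12 fits that left out 1 library (WT replicate 5 or 7 or KO replicate 4 or 6). Cab39l encodes MO25-beta, the paralog of the product of Cab39. It ran from 12.8 over a median of 15.7 to 19.1 in WT and from 15.8 over 22.4 to 29.4 in KO. The log2 difference was 0.43 with an SE of 0.20 (limma unadjusted p = 0.0493, adjusted p = 0.9996, exact permutation p = 0.028). Cab39l was not under 0.05 with a pseudocount of 5, median-of-ratios factors or equal total signal (limma unadjusted p = 0.0505, 0.0510 and 0.155). Nor was it in 8 of 12 fits that left out 1 library (WT replicate 2, 3, 4 or 5 or KO replicate 3, 4, 6 or 7), or without both libraries of low Y-linked signal (limma unadjusted p = 0.162). In both genes every KO library lay above the WT median, and the ranges overlapped.

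Among the substrates and effectors as a whole, 10 of 21 tested genes were higher and 11 lower in KO, with a median log2 difference of -0.0022. The numbers higher per list stand beside 50.7% of all genes tested and were not tested against it. Of the other subunit and upstream genes, 3 of 4 tested were higher, with a median of 0.05. Map3k7, the gene of the kinase TAK1, had a mean signal of 26.2 and a log2 difference of 0.06, and Stradb, the gene of STRAD-beta, 23.1 and 0.03. Neither passed a threshold.

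Of the AMPK-related kinases that LKB1 also activates, 5 of 7 tested were higher and 2 lower, with a median log2 difference of 0.04, and none had an unadjusted p under 0.05. The most abundant were Sik2, Mark3 and Sik3, with mean signals of 103, 97.1 and 73.2 and log2 differences of 0.12, 0.31 and 0.04. Of the genes that dock AMPK to the lysosome or encode folliculin and its partners, 6 of 8 were higher and 2 lower, with a median of 0.03. Fnip1 and Fnip2, whose products bind folliculin and AMPK, had log2 differences of 0.09 and 0.44, and Axin1, a scaffold for LKB1 at the lysosome, one of 0.05 with a single KO library at 233. Of the phosphatase genes, 3 of 5 were higher and 2 lower, with a median of 0.05. Ppp2ca, the catalytic subunit of PP2A, had a mean signal of 209 and a log2 difference of 0.05, and Ppm1a and Ppp2cb differed by -0.04 and -0.03. Not 1 gene of these 3 lists had an unadjusted p under 0.05 in limma. With 50.7% of all genes tested higher in KO, the numbers higher in these lists were not tested.

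**Figure D5:**
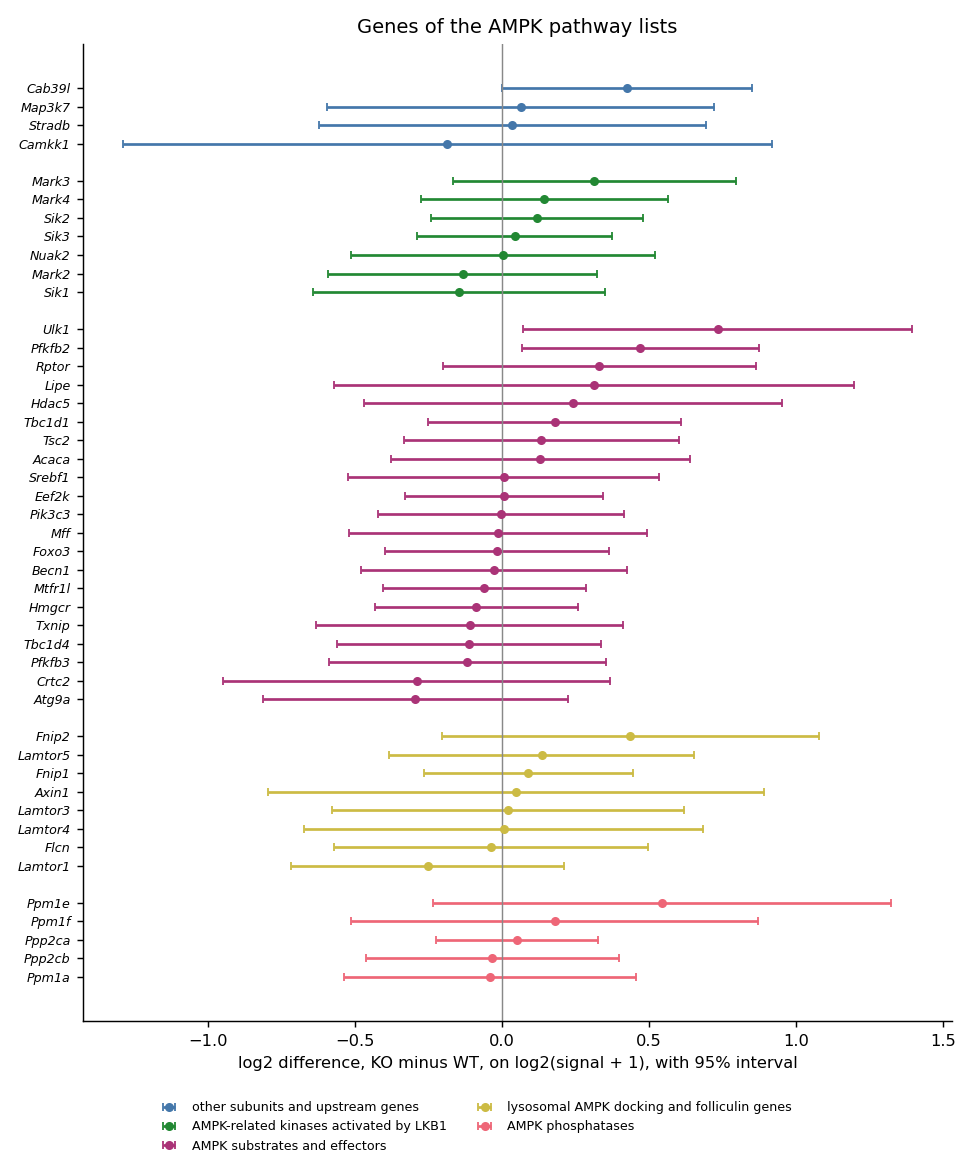
Difference KO minus WT on log2(signal + 1) (x axis) with its 95% interval from limma for the 45 tested genes of 5 pathway lists (y axis), colored by list. The intervals of Ulk1, Pfkfb2 and Cab39l lie above 0, and those of the other 42 genes include 0.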

How the data were processed

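RNA-seq of LSK cells from 12 mice was analysed, 6 WT and 6 Fancg KO, grouped by the genotype in the labels. The authors deposited normalized signal for each gene in each library, which by the look of the values is an estimated count scaled by 1 size factor per library. The submitters' processing notes name kallisto, and the mouse genome build and annotation are not given in the sources used here. Every column was matched to a library and 0 were unused. Depth is known only approximately, from the step at which low values pile up.

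Members and gene lists were chosen with earlier results of these data known. The 8887 genes whose mean signal reached 10 were tested on log2(signal + 1), which understates the change of low genes, with limma 3.58.1 (trend, two-sided, Benjamini-Hochberg over all genes tested) in R 4.3.3, without covariates. Whole reads could not be recovered, which left out count models. Single values were tested with two-sided exact permutation tests over libraries, enumerated in Python 3.11.15 with numpy 2.4.6, for which the smallest possible p is 0.0022. With 1 library per mouse, p-values rest on the spread between libraries, in which mouse, preparation and counting are not separated. In limma the spread of a gene is also drawn toward that of other genes. Scripts were tested on simulated data.

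Named genes are the 10 members, Fancg, the pathway genes past a threshold or else the 3 with the highest signal of a list, and the 3 genes most like Prkaa1. Positions, exon lengths and 31-base windows, searched on both strands, come from GENCODE M21 on GRCm38, in which 35929 of 35999 gene names were found. Signal per kilobase is signal divided by the merged exon length, and ratios of it used a pseudocount of 0.1. Alternatives were pseudocounts of 0.5 and 5, no filter or one of 50, quantile, equal-total and median-of-ratios normalization, limma without its trend, a replicate block, and fits without each library or without the 2 libraries of low Y-linked signal.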

Additional observations from a re-analysis of the deposited data

Results flagged for a closer look

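In 4 of 26 groups of 6 libraries, 1 library lay far from the other 5 by Dixon's test at the 95% level. Chance alone gives 1.3 such groups if values are normally distributed. That form was not tested for these values, which were taken without logs. Prkaa2 had a signal of 24.2 in WT replicate 3, 1 of the libraries of low Y-linked signal, against 2.51 to 10.2 in the other WT libraries. Prkab1 reached 24.0 in WT replicate 6, and the other WT libraries held 10.04 to 14.5. Strada stood apart in replicate 2 of both genotypes, with 52.4 against 34.6 to 39.5 in the other WT libraries and with 62.0 against 29.7 to 41.4 in the other KO libraries. For none of the 4 was a cause tested.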

How the results depend on the processing

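Across 12 fits without 1 library and 10 other settings, 0 genes had an adjusted p under 0.05 (limma), and the difference of Prkaa1 ranged from 0.48 to 0.61. The 343 alternative values for the results given include numbers of genes, and for Prkaa1 only the sign was compared. Of these values, 31 changed sign, 7 lost an unadjusted p under 0.05 and 15 were numbers of genes that moved. The remaining 290 kept their sign and side of the threshold or were numbers of genes nearer to the reported fit. Genes past the unadjusted thresholds, 233 in the reported fit, numbered 658 with no filter on low values, 37 with a filter of 50 and 124 with equal total signal without Lars2, and 207 to 277 when 1 library was left out. Among the pathway genes this count was 2 with no filter (Ulk1 and Nuak1), 0 with a filter of 50, 3 without the 2 libraries of low Y-linked signal (Ulk1, Pfkfb2 and Atg9a) and 0 to 2 when 1 library was left out.

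Differences close to 0 changed sign. With equal total signal, the log2 difference was 0.014 for Prkag2 and 0.019 for Camkk2, and with quantile normalization it was -0.0029 for Strada. Without the 2 libraries of low Y-linked signal it was -0.082 for Prkab1, -0.014 for Stk11, -0.0043 for Strada, -0.097 for Cab39 and 0.26 for Camkk2, and the share of Prkag1 differed by 0.85 percentage points. In the same fit Prkaa2, Prkab2, Prkag1 and Prkag2 kept their sign, with -0.46, -0.35, -0.19 and -0.27, and the share of Prkab1 differed by 4.25 points. With 1 library left out, the ranges were -0.037 to 0.30 for Prkab1, -0.18 to 0.19 for Prkag2, -0.12 to 0.11 for Strada, -0.071 to 0.10 for Cab39, -0.15 to 0.13 for Camkk2 and -5.14 to 1.12 percentage points for the share of Prkag1. Without a change of sign they were -0.98 to -0.29 for Prkaa2, -0.44 to -0.076 for Prkab2, -0.32 to -0.05 for Prkag1, 0.05 to 0.23 for Stk11 and 2.03 to 7.48 points for the share of Prkab1. The cause of these changes was not tested.

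The replicate numbers were not taken to pair the mice. Same-numbered libraries correlated at 0.25, 0.21, 0.091, 0.17, 0.36 and 0.086 in their deviations from the genotype means, and 9 of 12 libraries correlated best with their own number. The mean r was 0.196 for same-numbered and -0.039 for different-numbered libraries, and what the numbers share was not tested. The exact permutation tests leave the numbers out. An exact sign-flip test within numbers gave p = 0.281 for Prkaa2, 0.531 for Prkab2 and 0.5 for the share of Prkab1. With the replicate block, 286 genes passed the unadjusted thresholds, 476 had an unadjusted p under 0.05 and 0 an adjusted p under 0.05, and the log2 difference of Prkaa1 was 0.55. Cab39l then had an unadjusted limma p of 0.0542. Genes near the filter rested on few reads, between 7.91 and 23.0 per library for Prkab1, which limits what differences could be detected.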
